A study of Caenorhabditis elegans with 9 samples.

Results

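The genes described here are the 8 core components of the DBL-1 body size pathway, the Sma/Mab branch of TGF-beta signaling in Caenorhabditis elegans: dbl-1, lon-2, daf-4, sma-6, sma-2, sma-3, sma-4 and sma-9. They were chosen by name, as the array probe sets annotated to exactly 1 of these genes. This gave 14 of the 22548 probe sets tested and 8 of the 17118 genes that have a probe set of their own. Each gene is represented by its brightest probe set, the one with the highest mean over all 9 arrays, and the second probe set that 6 of the genes have is given as well. The gene models are T25F10.2 (dbl-1, chromosome V), C39E6.1 (lon-2, X), C05D2.1 (daf-4, III), C32D5.2 (sma-6, II), ZK370.2 (sma-2, III), R13F6.9 (sma-3, III), R12B2.1 (sma-4, III) and T05A10.1 (sma-9, X), as RefSeq annotates them on WBcel235.

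The study compared larvae at the L2-L3 stage, with 3 arrays for each of 3 strains, to ask which transcripts change when Wnt signaling is raised or lowered in the seam cells and vulval precursor cells (VPCs), the epidermal stem-like cells of the flank and the cells that form the vulva. The overactivation strain, deIs10;huIs1, expressed from a heat shock promoter a BAR-1 (beta-catenin) that lacks its amino terminus and is not degraded. The underactivation strain, deIs10;deIs26, expressed from a heat shock promoter a POP-1 (TCF) that cannot bind beta-catenin. Both carry dpy-20(e1282) and unc-30(e191) with unc-30(+), dpy-20(+) and ajm-1::gfp as markers, and both carry FLAG-tagged PAB-1, a poly(A) binding protein, under a bar-1 enhancer active in seam cells and VPCs, so that messenger RNA of these cells could be pulled down with the tag. The control, N2, is the wild type. It was heat shocked and taken through the same pull-down but has neither the tag nor the transgenes, so a comparison with N2 cannot tell Wnt activity apart from the tag, the other transgenes and the strain background. The pooled larvae of 1 preparation gave 1 array, and fewer cells of a type and less RNA per cell cannot be told apart.

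DBL-1 is a BMP-like ligand made mainly by neurons. It binds a receptor of a type II and a type I serine/threonine kinase, whose activation phosphorylates the receptor Smads; these join a co-Smad and enter the nucleus to change transcription. The epidermis is the tissue in which this signal sets body size: animals with too little of it are small (Sma), and animals with too much are long (Lon). The same pathway patterns the male tail, from which the second part of its name (Mab, male abnormal) comes, and it acts in cuticle collagen expression and in innate immunity.

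None of the 8 genes passed the test applied to the whole array in either Wnt strain, and their differences lay on both sides of 0. Of the 22548 probe sets, 1.56% passed between overactivation and N2, 0.00443% between underactivation and N2 and 0.00443% between overactivation and underactivation (limma, adjusted p under 0.05), and of the 8 genes 0 passed in any of these comparisons. At an unadjusted p under 0.05, 17.9%, 12.8% and 5.66% of all probe sets passed, against 0, 1 and 0 of the 8 genes at their brightest probe sets. The 1 gene was sma-4. Over all 14 probe sets of these genes the counts were 1, 2 and 1. The arrays of the strains did not overlap in 11.6% of all probe sets with overactivation higher than N2 and 9.06% with it lower, in 8.3% and 7.41% for underactivation against N2, and in 6.59% and 5.18% for overactivation against underactivation. At the brightest probe sets of the 8 genes, sma-4 alone had arrays that did not overlap, in underactivation against N2. The second daf-4 probe set was lower without overlap in overactivation, against both N2 and underactivation. The second sma-2 probe set was so in overactivation against underactivation. The median difference over the 8 genes was 0.26 on the log2 scale for overactivation against N2, beside 0.07 over all genes, with means of 5 genes higher and 3 lower. It was 0.13, beside 0.03, for underactivation against N2, and -0.15, beside 0.03, for overactivation against underactivation.

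**Figure D1:**
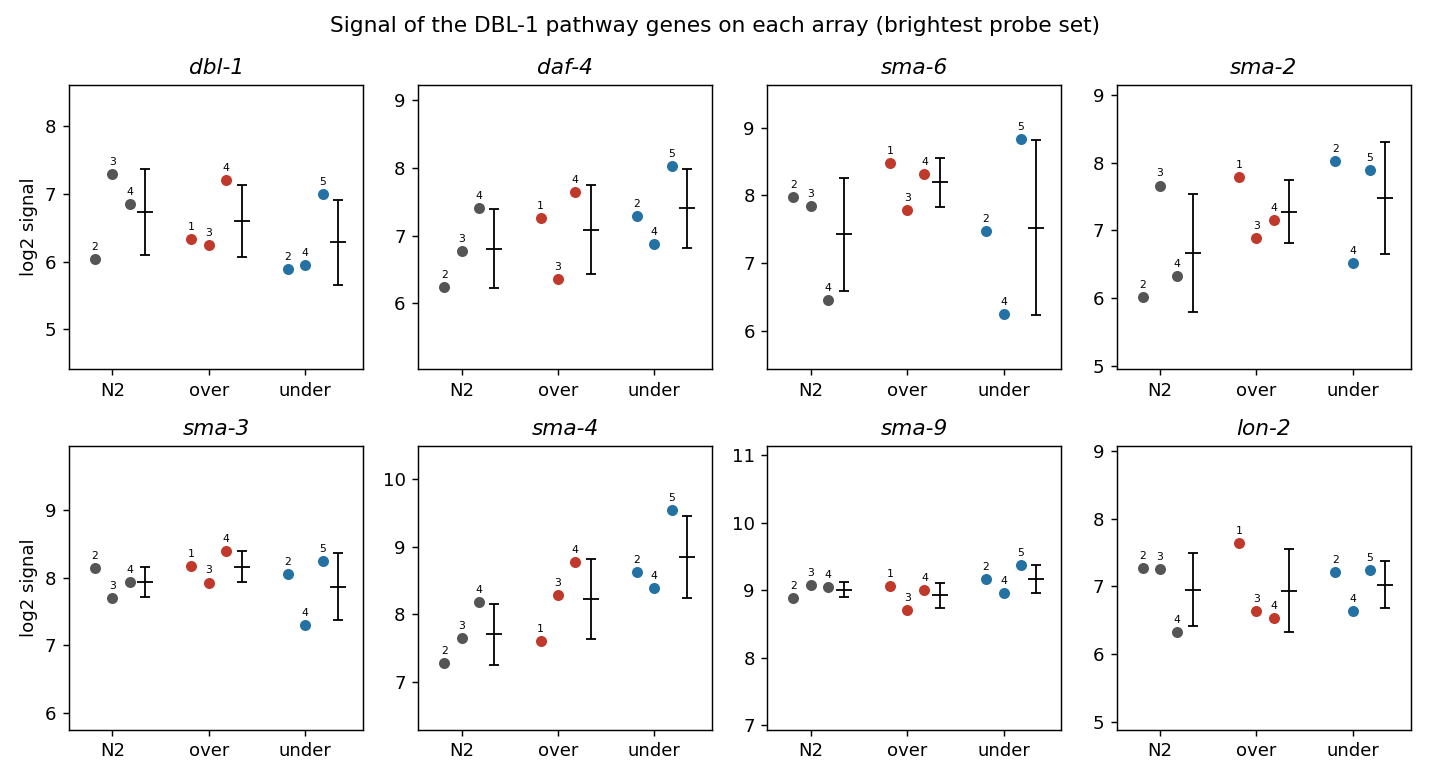
Log2 signal of the brightest probe set of each pathway gene (vertical axis, spanning the same width in each panel) on the 9 arrays, in N2 (grey), overactivation (red) and underactivation (blue). Points are arrays with their replicate number, and the black bar is the mean ± SD of 3 arrays; only sma-4 has all underactivation arrays above all N2 arrays, and sma-9 has the narrowest scatter.

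In what follows, values are log2 signals in the order of N2 replicates 2, 3 and 4, overactivation replicates 1, 3 and 4 and underactivation replicates 2, 4 and 5, and errors of group means are SD with n = 3. The ligand gene dbl-1 read 6.04, 7.30 and 6.85 in N2, 6.33, 6.25 and 7.21 in overactivation and 5.89, 5.96 and 7.01 in underactivation. Each strain held both higher and lower arrays, and all 3 groups overlapped. The means were 6.73 ± 0.64, 6.60 ± 0.53 and 6.28 ± 0.63. Overactivation differed from N2 by -0.14 (95% interval -1.12 to 0.84, adjusted p = 0.910) and underactivation by -0.45 (-1.43 to 0.53, adjusted p = 0.756). The dimmer dbl-1 probe set read 3.34, 4.55 and 5.57 in N2, 3.76, 3.78 and 4.04 in overactivation and 4.23, 4.08 and 3.70 in underactivation. Its 6 values in the Wnt strains lay inside the range of N2, whose own arrays were 2.23 apart.

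The gene lon-2 encodes a glypican, a cell surface proteoglycan that binds DBL-1 and holds signaling down, so that animals without it are long. It read 7.27, 7.26 and 6.33 in N2, 7.64, 6.63 and 6.53 in overactivation and 7.21, 6.63 and 7.24 in underactivation. All N2 arrays and overactivation replicates 1 and 4 lay outside the underactivation range, some above it and some below. The 3 means of 6.95 ± 0.54, 6.94 ± 0.61 and 7.03 ± 0.34 were close. The difference from N2 was -0.02 (-0.87 to 0.83) in overactivation and 0.07 (-0.78 to 0.93) in underactivation, with adjusted p = 0.986 and 0.971. The dim lon-2 probe set read between 2.22 and 2.74 with the same value on 5 arrays, near the lowest value of the whole table, 1.71,; whether it measures the gene was not tested.

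The type II receptor DAF-4 is shared by the body size branch and the dauer branch of TGF-beta signaling. The brightest daf-4 probe set read 6.24, 6.77 and 7.41 in N2, 7.27, 6.36 and 7.64 in overactivation and 7.29, 6.88 and 8.03 in underactivation. Underactivation replicate 5 was the highest, but the groups overlapped. The difference from N2 was 0.28 in overactivation (-0.71 to 1.27, adjusted p = 0.793) and 0.59 in underactivation (1.51-fold, -0.40 to 1.59, adjusted p = 0.657). The second daf-4 probe set gave the opposite direction. It read 6.34, 5.70 and 6.91 in N2, 5.02, 5.21 and 4.42 in overactivation and 5.24, 5.61 and 5.91 in underactivation. All overactivation arrays lay below all N2 arrays and, narrowly, below all underactivation arrays. Overactivation was 2.70-fold below N2 (-1.43, -2.22 to -0.65), which was closest of the 14 probe sets to the threshold and missed it at an adjusted p = 0.0788. It was 0.70 log2 below underactivation at an adjusted p = 0.906 (-0.70, -1.49 to 0.09), and underactivation differed from N2 by -0.73 (adjusted p = 0.428).

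The gene sma-6 encodes the type I receptor, which acts in the body size branch and not in the dauer branch. Its brightest probe set read 7.97, 7.84 and 6.46 in N2, 8.48, 7.79 and 8.32 in overactivation and 7.48, 6.25 and 8.84 in underactivation. The overactivation arrays were close together, whereas N2 replicate 4 and underactivation replicate 4 were low and underactivation replicate 5 was the highest of all, so that underactivation spanned 2.59. The mean of overactivation, 8.20 ± 0.36, was 1.71-fold that of N2, 7.42 ± 0.84 (0.77, -0.68 to 2.22, adjusted p = 0.586), and 1.59-fold that of underactivation, 7.52 ± 1.30 (0.67, -0.77 to 2.12, adjusted p = 0.948). Of the 8 genes only sma-6 had an overactivation mean at least 1.5-fold above both other strains. Single arrays set the size of these differences: without N2 replicate 4 the first was 0.29, and without underactivation replicate 4 the second was 0.04. The other sma-6 probe set, at 6.38, 7.25 and 5.90 in N2, 5.86, 4.79 and 6.11 in overactivation and 5.78, 4.89 and 6.66 in underactivation, was lower on average in both Wnt strains, by -0.92 (adjusted p = 0.415) and -0.74 (adjusted p = 0.652).

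Of the receptor Smads, SMA-2 and SMA-3, the sma-2 gene had the larger differences from N2. It read 6.02, 7.66 and 6.33 in N2, 7.79, 6.88 and 7.15 in overactivation and 8.03, 6.53 and 7.89 in underactivation. In N2 the arrays of replicates 2 and 4 lay below all arrays of the other strains, but N2 replicate 3 lay among the higher ones. Overactivation was 1.52-fold N2 (0.61, -0.59 to 1.80, adjusted p = 0.607) and underactivation 1.76-fold N2 (0.81, -0.38 to 2.01, adjusted p = 0.5975). Single N2 arrays set these sizes: the differences were 0.28 and 0.49 without N2 replicate 2 and 1.11 and 1.31 without N2 replicate 3. The second sma-2 probe set read 5.39, 5.46 and 6.85 in N2, 6.09, 5.74 and 6.30 in overactivation and 7.08, 7.09 and 6.84 in underactivation. There the underactivation arrays stood together above all overactivation arrays and level with or above N2 replicate 4, the highest of N2. Underactivation was 2.15-fold N2 (1.10, 0.25 to 1.95, adjusted p = 0.271), and overactivation was 1.95-fold below underactivation (-0.96, -1.81 to -0.11, adjusted p = 0.81). The sma-3 gene read 8.15, 7.70 and 7.94 in N2, 8.16, 7.93 and 8.40 in overactivation and 8.05, 7.30 and 8.24 in underactivation. Apart from the low underactivation replicate 4 these values lay within a narrow band, with differences from N2 of 0.23 (-0.38 to 0.85, adjusted p = 0.711) and -0.06 (-0.68 to 0.56, adjusted p = 0.966).

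The co-Smad gene sma-4 had the largest difference among the brightest probe sets of the 8 genes, without passing the test. It read 7.28, 7.65 and 8.18 in N2, 7.61, 8.28 and 8.78 in overactivation and 8.63, 8.38 and 9.53 in underactivation. Every underactivation array was above every N2 array, and overactivation overlapped both. The means were 7.70 ± 0.45, 8.22 ± 0.59 and 8.85 ± 0.61. Underactivation was 2.21-fold N2 (1.15, SE 0.40, 0.24 to 2.06, adjusted p = 0.283), with 3 of 3 arrays higher than N2; without underactivation replicate 5, the highest array, the difference was 0.80. Overactivation differed from N2 by 0.52 (-0.39 to 1.43, adjusted p = 0.553) and from underactivation by -0.63 (-1.54 to 0.28, adjusted p = 0.925), so that the underactivation mean was 1.54-fold above that of overactivation. Without overactivation replicate 4 overactivation was 0.24 above N2, and without overactivation replicate 1 it was 0.83 above.

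The gene sma-9 encodes a zinc finger protein of the Schnurri family, a partner of Smads in the nucleus. It was the steadiest of the 8 genes, at 8.88, 9.08 and 9.05 in N2, 9.06, 8.71 and 9.001 in overactivation and 9.16, 8.96 and 9.37 in underactivation. The groups overlapped and no array was more than a small step from the others. Its difference from N2 was -0.08 in overactivation (-0.50 to 0.34, adjusted p = 0.866) and 0.16 in underactivation (-0.26 to 0.58, adjusted p = 0.813), and it was the only gene of the 8 for which the 95% intervals of both differences stayed within 1.5-fold in either direction. The dimmer sma-9 probe set was more scattered, with 4.94, 4.48 and 5.88 in N2, 4.71, 4.03 and 5.08 in overactivation and 4.20, 5.04 and 4.13 in underactivation, and with averages below N2 by -0.50 (adjusted p = 0.602) and -0.65 (adjusted p = 0.605).

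**Figure D2:**
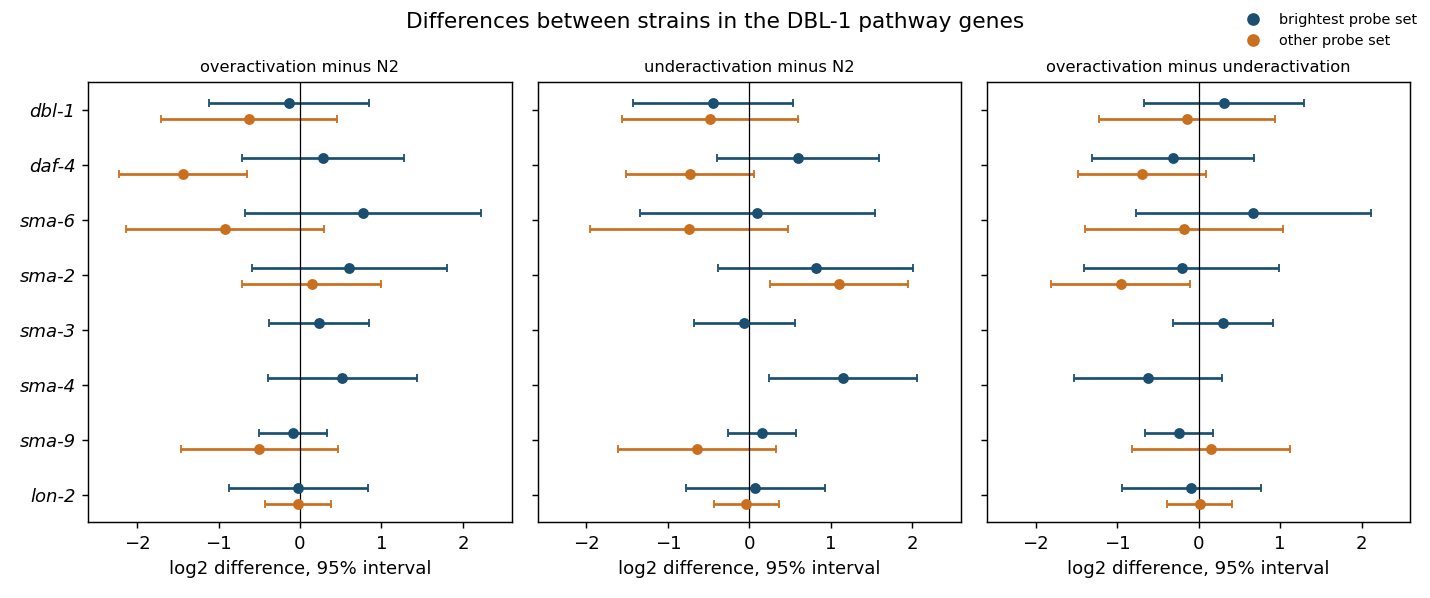
Log2 difference between strains (horizontal axis) for each pathway gene, with its 95% interval from the fit, for the brightest probe set (blue) and the other probe set (orange). All intervals of the brightest probe sets cover 0 except that of sma-4 in underactivation minus N2 (0.24 to 2.06). The second daf-4 probe set lies below 0 in overactivation minus N2 (-2.22 to -0.65). The second sma-2 probe set lies above 0 in underactivation minus N2 (0.25 to 1.95) and below 0 in overactivation minus underactivation (-1.81 to -0.11).

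The scatter between arrays of a strain bounds what these counts can show. The pooled SD was 0.17 for sma-9 and 0.34 for sma-3, beside a median of 0.36 over all genes, and 0.51 to 0.92 for the other 6 genes. A further probe set would have passed against N2 in overactivation at an unadjusted p of about 0.000783, which for the 8 genes meant a difference of 1.90-fold (sma-9) to 9.20-fold (sma-6). In each of the other comparisons it meant 3.61-fold to 83.8-fold, so that changes of ordinary size in these genes were not detectable there.

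Part of the scatter was shared by the genes. Underactivation replicate 5 was above the gene's mean over all arrays in 8 of 8 genes and was the highest of the 9 arrays in 4, daf-4, sma-6, sma-4 and sma-9. Underactivation replicate 4 was above that mean in 1 of 8 and was the lowest array in 2, sma-6 and sma-3, and N2 replicate 2 was the lowest in 3, daf-4, sma-2 and sma-4. The median deviation of the 8 genes from their means was 0.61 on underactivation replicate 5 and -0.46 on underactivation replicate 4. That of all genes was -0.03 and -0.02, and normalization keeps it near 0 on every array (-0.09 to 0.03). It therefore cannot tell how often 8 other genes shift together, which was not tested. Underactivation replicates 4 and 5 are of the same strain, and no label other than the replicate number sets them apart. Over all probe sets, underactivation replicate 4 correlated most with N2 replicate 4 (r = 0.973), beside 0.971 and 0.969 with the other arrays of its own strain. The muscle myosin genes read 10.39 (myo-3) and 11.28 (unc-54) on it, beside 9.38 and 9.39, and 10.06 and 10.23, on underactivation replicates 2 and 5. The cause was not tested.

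For daf-4 and sma-6 the 2 probe sets of the gene gave averages on opposite sides of N2 in both Wnt strains. Those of sma-9 (0.16 and -0.65) and lon-2 (0.07 and -0.04) did so in underactivation only. The distance between the 2 probe sets of a gene, brightest minus other, was compared as a difference within each array, since the level of a probe set cannot be set against that of another. For daf-4 it was -0.09, 1.07 and 0.50 in N2, 2.25, 1.15 and 3.22 in overactivation and 2.06, 1.28 and 2.13 in underactivation, with all 6 arrays of the Wnt strains above all 3 of N2. For sma-6 it was 1.59, 0.59 and 0.56 in N2, 2.62, 2.99 and 2.21 in overactivation and 1.71, 1.36 and 2.18 in underactivation, with overactivation above N2 throughout. In a fit over the 2981 genes that have at least 2 probe sets, the distance was larger than in N2 by 1.71 for daf-4 (0.53 to 2.89, adjusted p = 0.112) and by 1.69 for sma-6 (0.82 to 2.56, adjusted p = 0.0832) in overactivation, and by 1.33 for daf-4 (0.15 to 2.51, adjusted p = 0.409) and 0.84 for sma-6 (-0.03 to 1.71, adjusted p = 0.429) in underactivation.

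None of these distances passed the test. For overactivation against N2, 0% of the 2981 genes passed at an adjusted p under 0.05, 23.3% at an unadjusted p under 0.05, and 28.8% had arrays that did not overlap, against 2 of the 6 pathway genes with a second probe set. For underactivation against N2 the shares were 0%, 11.5% and 13.1%, against 1 of 6 without overlap, daf-4. The array's control probes also differed between the strains. The 3′ probe set of actin read 0.671 to 0.911 log2 above the 5′ one in N2, 1.47 to 2.25 in overactivation and 0.903 to 2.35 in underactivation, and that of Gapdh 2.02 to 2.96, 3.20 to 3.60 and 2.87 to 4.06. The part of this 3′ shift in the distances of daf-4 and sma-6 was not tested. For dbl-1, sma-2, sma-9 and lon-2 the distance differed from N2 by at most 0.49 in overactivation and 0.80 in underactivation, at adjusted p of 0.527 or more.

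**Figure D3:**
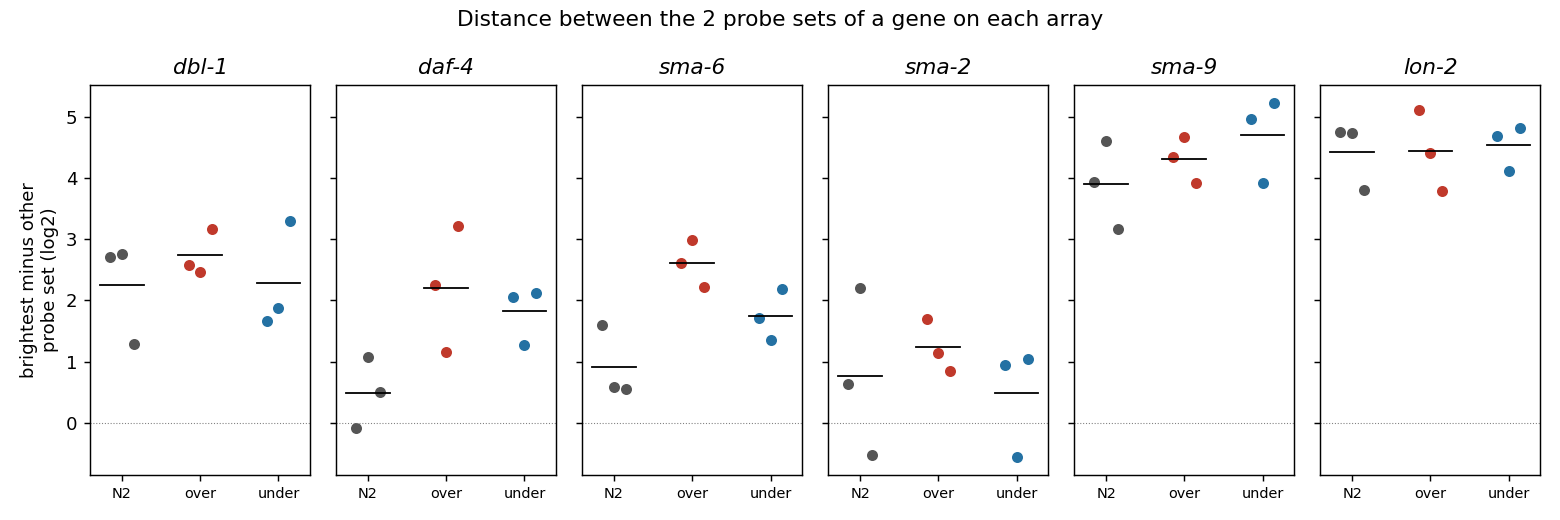
Distance between the 2 probe sets of a gene, brightest minus other (vertical axis, log2), on each array for the 6 pathway genes that have 2, with the group mean as a line. In daf-4 all arrays of the Wnt strains lie above the N2 arrays, which reach 1.07, and in sma-6 all overactivation arrays do, while the other genes overlap between strains.

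The genes with patterns most like those of sma-4 and sma-2, which had the smallest p among the 8, were found by the root mean square difference of log2 signals centred on their own mean over 9 arrays. For sma-4 these were F13C5.3 (0.230), dpf-6 (0.246), a peptidase family gene, and C35E7.4 (0.260), of 17117 other genes, beside a root mean square of 0.651 for sma-4 about its own mean. For sma-2 they were orai-1 (0.253), a store-operated calcium channel gene, kin-30 (0.280), a kinase gene, and trpp-9 (0.282), beside 0.701 for sma-2 itself. The 9 values of orai-1 were 6.06, 7.69 and 6.66 in N2, 7.61, 7.39 and 7.46 in overactivation and 7.73, 6.81 and 7.82 in underactivation. The high N2 replicate 3 and low underactivation replicate 4 that it shares with sma-2 follow from its choice by likeness. None of the 8 pathway genes was among these 6. Of the 6, F13C5.3 (2.47 to 5.39), C35E7.4 (2.67 to 4.56) and kin-30 (2.98 to 4.87) were dim. The array medians over all probe sets were 4.72 to 4.92. Whether these dim probe sets measure their genes was not tested. Between the pathway genes themselves the closest pair was sma-3 and sma-9 (0.313) and the farthest sma-4 and sma-6 (0.965).

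Around the core components, 6 further lists of genes were measured. They were chosen with earlier results of these data known, so the number of their genes above N2 is no independent support. None of the genes of these lists passed in any comparison, beside the shares of all probe sets given above. Of the extracellular and membrane modulators, 7 of 9 have a probe set of their own, and their median difference from N2 was 0.46 in overactivation and 0.07 in underactivation. The largest differences were in adt-2, which encodes a secreted ADAMTS metalloprotease that acts on body size, with 6.54, 6.69 and 7.90 in N2, 8.53, 8.64 and 8.61 in overactivation and 8.17, 7.74 and 9.58 in underactivation. Every overactivation array was above N2 (1.55, adjusted p = 0.148), while underactivation overlapped it (1.45, adjusted p = 0.273), and the second adt-2 probe set differed from N2 by 0.19 and 0.38. The tetraspanin gene tsp-14 was 0.91 above N2 in overactivation (adjusted p = 0.367) and 0.99 above underactivation (adjusted p = 0.906). Its second probe set had the opposite sign in both, at -0.84 and -0.59. The ADAM10 protease gene sup-17 differed from N2 by -0.29 in underactivation (adjusted p = 0.827), and its other probe sets by 0.14 and -0.28. The gene sma-10, for a transmembrane protein with leucine-rich repeats that binds the receptors, was 0.66 above underactivation in overactivation (adjusted p = 0.935). Its second probe set had the opposite sign (-0.50, adjusted p = 0.938).

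The 5 genes of receptor trafficking, which carry DAF-4 and SMA-6 through endosomes, all had means above N2 at their brightest probe sets. Their median difference was 0.98 in overactivation and 0.68 in underactivation. Over all genes it was 0.07 and 0.03, which normalization keeps near 0, with quartiles of -0.23 and 0.33 and of -0.20 and 0.28. The share of all genes with a mean above N2 was not counted. The retromer subunit gene vps-26 read 9.05, 8.32 and 8.07 in N2, 9.46, 9.69 and 9.73 in overactivation and 9.41, 8.77 and 9.31 in underactivation. Its overactivation arrays stood above all N2 arrays (1.15, adjusted p = 0.0846; 1.43 and 0.0391 without N2 replicate 2), and its second probe set was 0.79 above N2 (adjusted p = 0.211). The clathrin adaptor (AP2) subunit gene dpy-23 was 0.98 above N2 in overactivation (adjusted p = 0.110) and 0.73 in underactivation (adjusted p = 0.316), without overlap in either, but its second probe set differed by -0.39 and -0.31. The sorting nexin gene snx-3 was 1.29 above N2 in overactivation (adjusted p = 0.306) and 0.72 in underactivation (adjusted p = 0.710), with N2 replicate 3 at 4.38 well below the other arrays; without it the differences were 0.60 and 0.030.

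Of the 3 intracellular modulators, mab-21 had the largest difference from N2 among the brightest probe sets of all pathway lists. It encodes a protein of the Mab-21 family that acts with the pathway in the male tail. It read 6.95, 5.92 and 6.56 in N2, 8.66, 8.11 and 8.002 in overactivation and 8.13, 7.29 and 8.39 in underactivation, so that all 6 arrays of the Wnt strains were above N2. It was 3.44-fold N2 in overactivation (1.78, SE 0.36, adjusted p = 0.0524), just short of the threshold, and passed it without N2 replicate 2 (adjusted p = 0.045), without underactivation replicate 4 (adjusted p = 0.0393) and in 3 other settings given at the end. It was 2.75-fold N2 in underactivation (1.46, adjusted p = 0.145), and the Wnt strains differed from each other by 0.32 (adjusted p = 0.961). The kinase gene kin-29 differed from N2 by -0.41 in overactivation and -0.61 in underactivation (adjusted p = 0.565 and 0.491). Its second probe set differed by -1.47 and -0.90 (adjusted p = 0.157 and 0.4996). For mab-31 the differences were -0.15 and -0.69 (adjusted p = 0.888 and 0.560), and -0.00024 and -0.24 at its second probe set.

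Genes reported as targets of the pathway, mostly cuticle collagens, had means above N2 in 8 of the 8 measured (of 10 listed; col-10 and spp-9 share their probe sets with other genes) in both Wnt strains. Their medians were 0.75 in overactivation and 0.49 in underactivation, and 0.27 for overactivation against underactivation. The list includes lon-1, which the pathway holds down, so the count above N2 is no measure of pathway activity. The caenacin gene cnc-2, an antimicrobial peptide, was 1.40 above N2 in overactivation (adjusted p = 0.402) and 1.22 in underactivation (adjusted p = 0.597), with N2 arrays from 7.24 to 10.92 that enclosed all others; without N2 replicate 2, the highest, these differences were 2.41 (adjusted p = 0.0449) and 2.23, and without N2 replicate 3, the lowest, 0.57 and 0.39. The collagen gene col-12 was 0.90 above N2 in overactivation without overlap (adjusted p = 0.303; 0.44 without N2 replicate 4) and 0.82 above underactivation (adjusted p = 0.941), and the collagen gene rol-6 was 0.77 above N2 in underactivation (adjusted p = 0.639) and differed between the Wnt strains by -0.47. The gene lon-1, a CAP family protein that is held down by the pathway and limits body length, was chosen after its values were seen: it read 6.41, 6.13 and 6.96 in N2, 7.24, 7.23 and 7.33 in overactivation and 7.25, 6.96 and 6.65 in underactivation. Its overactivation arrays were above all N2 arrays (0.77, adjusted p = 0.151).

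**Figure D4:**
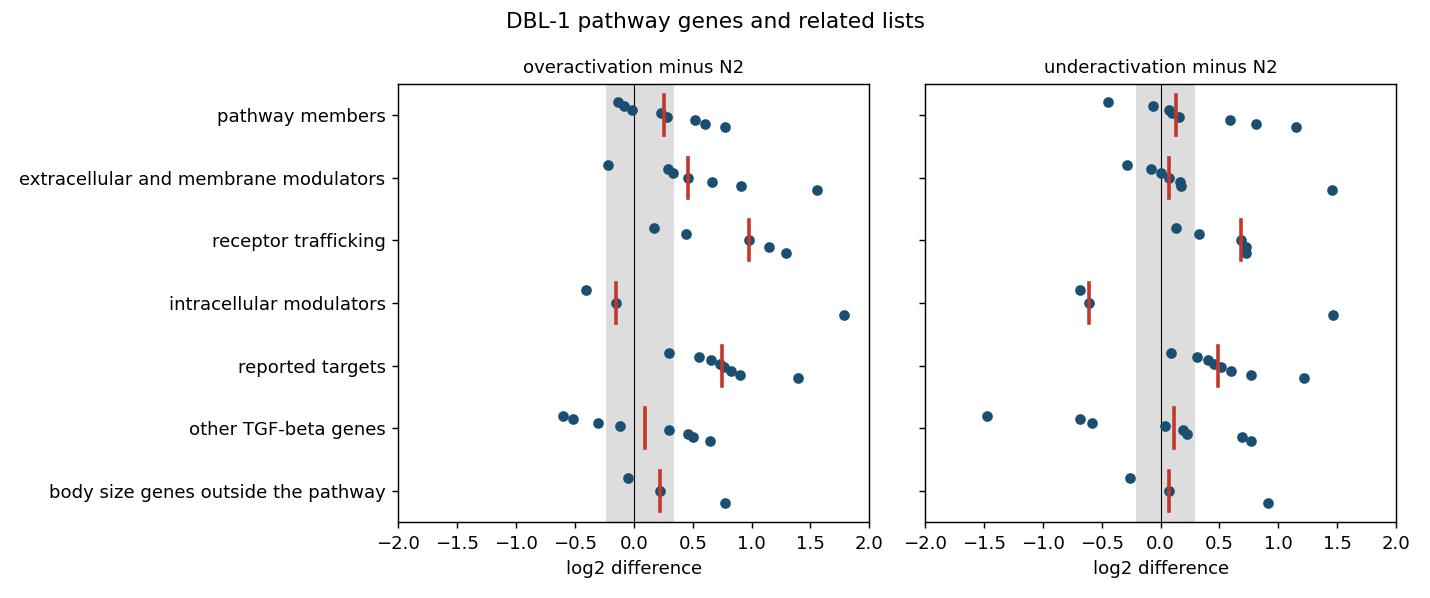
Log2 difference from N2 (horizontal axis) of every measured gene in the pathway lists, for overactivation and underactivation; points are genes, red lines the list medians and the grey band the range between the quartiles of all genes. All 5 receptor trafficking genes and all 8 reported targets lie above 0 in both panels, whereas the 8 pathway genes lie on both sides, with a median of 0.26 and 0.13. Each gene is shown at its brightest probe set, and the lists were chosen with earlier results of these data known.

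Other TGF-beta genes and body size genes outside the pathway had 0 calls. The medians of 8 other TGF-beta genes were 0.09 in overactivation and 0.12 in underactivation against N2, and those of sma-1, sma-5 and lon-8 were 0.22 and 0.07. The dauer branch ligand gene daf-7, chosen after its values were seen, read 6.32, 6.64 and 5.67 in N2, 6.30, 5.48 and 5.07 in overactivation and 5.36, 4.52 and 4.33 in underactivation. All underactivation arrays were below N2 (-1.47, adjusted p = 0.1875), and overactivation overlapped both (-0.60, adjusted p = 0.491).

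Markers of the labelled cells and of other tissues were read beside these results. Of 9 seam and epidermis markers 7 were measured, with mean list levels of 7.64 to 7.88 in N2, 8.08 to 8.64 in overactivation and 7.67 to 7.97 in underactivation, and 0 passed. In overactivation 5 means were above N2 and 2 below. Named after their values were seen, egl-18 (1.01, adjusted p = 0.276) and elt-6 (1.33, adjusted p = 0.0955) were above N2. So were wrt-2 (1.46, adjusted p = 0.328), grd-10 (0.94, adjusted p = 0.355) and dpy-7 (0.05, adjusted p = 0.965). Arrays did not overlap for elt-6 and grd-10. The paper places egl-18 and elt-6 downstream of Wnt signaling in seam cells. Whether any of these differences measures seam cell enrichment was not tested. The 2 below N2 were ceh-16 (-0.83, adjusted p = 0.512) and lin-26 (-0.20, adjusted p = 0.882). The 3 VPC markers had levels of 6.36 to 7.35, 7.27 to 7.75 and 6.56 to 7.23, and 0 passed. The body wall muscle list ranged from 10.15 to 10.45 in N2, 8.81 to 9.38 in overactivation and 9.39 to 10.05 in underactivation, and 2 of 5 genes fell in overactivation, the myosin genes myo-3 (-1.99, adjusted p = 0.0338) and unc-54 (-1.96, adjusted p = 0.0412). Of 10 neuron markers 1, the neuropeptide convertase gene egl-3 (-1.53, adjusted p = 0.0254), and of 7 intestine markers 1, the esterase gene ges-1 (-1.70, adjusted p = 0.0459), also fell in overactivation. On leaving out each of the 9 arrays in turn, these calls held in 3, 2, 4 and 0 of 9 fits. With the replicate number as a block all 4 were lost (adjusted p = 0.143, 0.143, 0.143 and 0.190), as was every call of the array (0 of 22548). The differences themselves were larger there, at -2.47, -2.37, -1.71 and -1.90. Overactivation replicate 1 and underactivation replicate 5 share their number with no other array, so they do not inform the differences in that fit. The block fit therefore cannot decide how firm the 4 calls are. These lists did not go one way in overactivation: the mean was above N2 in 3 of 10 neuron markers, among them the synaptobrevin gene snb-1 (0.60, adjusted p = 0.116, without overlap), and in 2 of 7 intestine markers, the GATA factor gene elt-2 (1.31, adjusted p = 0.349) and the metallothionein gene mtl-2 (0.57, adjusted p = 0.569), which were named after their values were seen. The neuron list ranged from 7.52 to 7.76, 6.82 to 7.03 and 6.98 to 7.37 and the intestine list from 7.75 to 8.68, 6.97 to 8.09 and 6.81 to 7.96; pharynx and germline markers had 0 calls. The part of these shifts in the values of the pathway genes was not tested.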

How the data were processed

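RNA from 9 preparations was hybridized to Affymetrix C. elegans GeneChip arrays. The deposited log2 values come from Robust Multichip Average in Partek, as run by the authors (version not given in the sources used here), and were taken unchanged. The methods describe amplified cDNA from immunoprecipitated mRNA and biological triplicates, whereas the labels describe labelled cRNA from total RNA. Groups and replicate numbers came from the labels. All value columns were used (0 left out), and the deIs10;scm::gfp strain was not analysed here.

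The array's annotation assigned 1 gene to 20766 probe sets, several to 887 and none to 895, after removal of 77 array controls. Group means of the 3 strains were fitted to these 22548 probe sets with limma 3.58.1 (R 4.3.3; 6 residual and 2.71 prior degrees of freedom). Tests were two-sided, with Benjamini-Hochberg adjustment across the whole array and a threshold of 0.05. No probe set was tested against background. The fit was tested on simulated data. Python 3.11.15 with matplotlib 3.10.9 drew the figures. The precision is limited by the number of arrays.

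The members and lists were chosen with earlier results of these data known. Named were all 8 members with all probe sets, each list gene that passed, and in the pathway lists the 2 genes with the largest difference of each comparison; for likeness, the 3 genes nearest to the 2 members with the smallest unadjusted p. Genes outside this rule are marked. Alternatives were other normalizations, a filter on dim probe sets, other moderation, only the groups compared, a replicate block, array weights, the mean over a gene's probe sets and leaving out each array.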

Additional observations from a re-analysis of the deposited data

How the results depend on the processing

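Of the 8 genes 0 passed in any comparison under each of the 9 other settings and with each of the 9 arrays left out; the smallest adjusted p over these was 0.218, for underactivation against N2 without underactivation replicate 4. Over all probe sets the count that passed between overactivation and N2, 352, was 486 without the dimmest probe sets, 3 without moderation, 70 in a fit of the 2 groups alone, 0 with the replicate block, and 8 to 494 with 1 array left out; the 1 of underactivation against N2 became 0 to 16 and the 1 of overactivation against underactivation 0 to 13. Residual correlations were -0.088 to 0.234 in 5 pairs of arrays with the same replicate number, the highest being replicate 4 of N2 and of underactivation, and -0.197 to 0.211 in 22 other pairs. Replicate 4 of overactivation had 0.084 with that of N2 and 0.074 with that of underactivation. So few pairs cannot decide whether arrays of 1 number were handled together. The main fit did not take the numbers as pairs. With the number as a replicate block sma-4 was 0.74 above N2 in underactivation (adjusted p = 0.646), sma-6 -0.60, sma-10 -0.22 and col-12 -0.025; against underactivation, overactivation was then 0.018 for daf-4, 0.025 for sma-4 and 0.19 for the second sma-6 probe set. The 4 marker calls were lost with the block, under which no probe set of the array passed, while their differences grew in size. The gene mab-21 passed between overactivation and N2 with arrays centred on their medians (adjusted p = 0.041), without the dimmest probe sets (adjusted p = 0.0359) and with genes as the mean of their probe sets (adjusted p = 0.0492). The settings for the distances between probe sets, for second probe sets and for genes beyond the 8 were chosen after seeing the data.

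Signs turned only in differences that did not pass; among the 8 genes the largest of these, sma-6 in overactivation minus N2, was 0.77. With the mean over a gene's probe sets, overactivation minus N2 was -0.58 for daf-4 and -0.075 for sma-6, underactivation minus N2 -0.069 for daf-4, -0.32 for sma-6 and -0.24 for sma-9, and overactivation minus underactivation -0.044 for adt-2 and -0.18 for kin-29; there the second probe sets enter the value. With quantile normalization again lon-2 was 0.063 above N2 in overactivation, sma-10 -0.0042 in underactivation and the second lon-2 probe set -0.042 between the Wnt strains. With arrays centred on their medians lon-2 was 0.037, its second probe set 0.031 and sma-10 -0.0010, and with array weights sma-10 was -0.022 and the second lon-2 probe set -0.0069.

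Leaving out 1 array gave these ranges where a sign turned. For overactivation minus N2 they were dbl-1 -0.48 to 0.15, daf-4 -0.0022 to 0.64, sma-9 -0.15 to 0.026, lon-2 -0.37 to 0.18, the second probe sets of sma-2 -0.11 to 0.62 and of lon-2 -0.15 to 0.11, sup-17 -0.024 to 0.54, mab-31 -0.45 to 0.12 and rol-6 -0.22 to 0.82. For underactivation minus N2 they were sma-6 -0.56 to 0.74, sma-3 -0.25 to 0.22, lon-2 -0.24 to 0.27, the second dbl-1 probe set -1.06 to 0.059, tsp-14 -0.48 to 0.52, sma-10 -0.50 to 0.43, col-12 -0.38 to 0.36 and ges-1 -0.29 to 0.082. For overactivation minus underactivation they were daf-4 -0.59 to 0.051, sma-2 -0.68 to 0.068, lon-2 -0.44 to 0.11, the second probe sets of lon-2 -0.11 to 0.15, of sma-6 -0.63 to 0.26 and of sma-9 -0.089 to 0.44, adt-2 -0.28 to 0.64, mab-21 -0.0020 to 0.55, kin-29 -0.013 to 0.53, cnc-2 -0.21 to 0.37, rol-6 -0.99 to 0.047 and the probe set distance of daf-4 -0.12 to 0.92. The cause was not tested. No signal was tested against background, so differences of dim probe sets may be understated.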
